A study of Papio papio with 23 samples.

Results

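The leukocyte immunoglobulin-like receptors (LILR) are described here in whole blood of irradiated baboons. The members are the probes that the scanner files name LILRA1, LILRA2, LILRA3, LILRA5, LILRB1, LILRB2, LILRB3 or LILRB4. They are 8 of the 36337 gene names on the array and 10 of its 50599 probes, since LILRB3 and LILRB4 have 2 probes each. The array holds 4 further LILR genes (LILRA4, LILRA6, LILRB5 and LILRP2), which serve as a comparison.

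The animals were adult male Papio papio baboons with a mean age of 8.1 years (spread 3.3 years), and RNA came from 2.5 ml of peripheral blood each. Groups H2-3 and H1-2 hold irradiated animals. The names are severity categories of the blood form of acute radiation syndrome (HARS) that the animal went on to develop, H2-3 being the more severe. H2-3 had 5 arrays on day 2 and 5 on day 1 after exposure. H1-2 had 4 arrays on day 2 and 4 on day 1. Group H0 had 5 arrays of unexposed, healthy baboons, taken before irradiation. Irradiation was with gamma rays from a cobalt source, to the whole or part of the body, under anaesthesia. The equivalent whole-body dose, 2.5 or 5 Gy, is given for the study and not for single animals, so the groups could not be split by dose or by exposed field. The titles give the same baboon numbers on both days within a category. The labels do not say if the H0 animals were later irradiated and sampled again.

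LILRs are cell-surface receptors with extracellular immunoglobulin domains, found mostly on monocytes, macrophages, dendritic cells and granulocytes in human blood, with LILRB1 also on B cells and subsets of NK and T cells. The human LILRA receptors are mostly activating: a charged residue in the membrane joins them to FCER1G, a small adaptor with an activating tyrosine motif. The human LILRB receptors carry inhibitory tyrosine motifs in their own tails, which recruit the phosphatases PTPN6 and PTPN11 and dampen signals from activating receptors. Several of them bind MHC class I. The roles named below are known from human cells.

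Each probe is 60 bases long and was designed on human transcripts, so what a probe measures in baboon RNA depends on how well the baboon transcript matches it, which was not tested. All the LILR probes lie on chromosome 19 of the human build hg19, in the leukocyte receptor complex. The probes from LILRB3 to LILRA4 lie on the minus strand between 54720773 and 54848368. Those from LILRA2 to LILRP2 lie on the plus strand between 55086794 and 55224792. The 15 LILR probes form 105 pairs, and 5 of these pairs share a run of at least 12 bases. Among the 45 pairs of the 10 member probes, 1 pair does. The sequences below are shown because they bear on how far the probes can be told apart: capitals mark runs shared with another LILR probe. The LILRB3 probe A_23_P368711 (chr19:54724597-54724656) and the LILRA4 probe A_23_P90497 (chr19:54848309-54848368) share 24 bases and match at 81.0% of 58 aligned bases. The LILRA3 probe A_23_P79094 (chr19:54802096-54802155) starts with 12 bases of that run. The LILRA2 probe A_23_P142205 (chr19:55086794-55086853) shares no run of that length, but the file lists a LILRA1 transcript beside those of LILRA2 for it.
LILRB3, A_23_P368711: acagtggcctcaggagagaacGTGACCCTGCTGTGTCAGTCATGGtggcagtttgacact
LILRA4, A_23_P90497: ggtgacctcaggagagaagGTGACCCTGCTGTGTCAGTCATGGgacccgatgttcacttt
LILRA3, A_23_P79094: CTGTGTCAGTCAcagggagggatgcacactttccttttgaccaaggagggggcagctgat
LILRA2, A_23_P142205: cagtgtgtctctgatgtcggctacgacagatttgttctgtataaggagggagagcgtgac
The other LILRB3 probe, A_32_P70158 (chr19:54720773-54720832), shares the 18 bases TCAAAGATGACTAATATC with the LILRB5 probe. The LILRB1 and LILRB2 probes match at 81.4% of 43 aligned bases, with no shared run of 12.

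A level is the log2 signal of a probe minus the 75th percentile of its array. A change is a difference of 2 such group means, with its standard error from a limma fit over 27215 probes. Higher and lower are used of a probe with an adjusted p under 0.05 over all of them, unless said otherwise. All 10 member probes passed the filter on dim signals. Of these, 9 were well above background on all 23 arrays and none was saturated. The second LILRB4 probe (A_33_P3267799) was well above background on 3 of 5 H2-3 day 2, 2 of 5 H2-3 day 1, 1 of 4 H1-2 day 2, 1 of 4 H1-2 day 1 and 1 of 5 H0 arrays, so its values are close to the limit of the measurement. The arrays had 41.4 to 51.3% of probes well above background. They lie on 7 slides scanned on 3 days. All day 2 arrays were scanned on the third day. All day 1 arrays and H0 baboons 3, 4 and 5 were scanned on the second day, and H0 baboons 1 and 2 on the first. Comparisons of day 2 with H0 or with day 1 therefore cannot be told apart from scan day and slide. No slide holds both H1-2 day 1 and H0 arrays, so these groups cannot be compared within a slide.

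**Figure D1:**
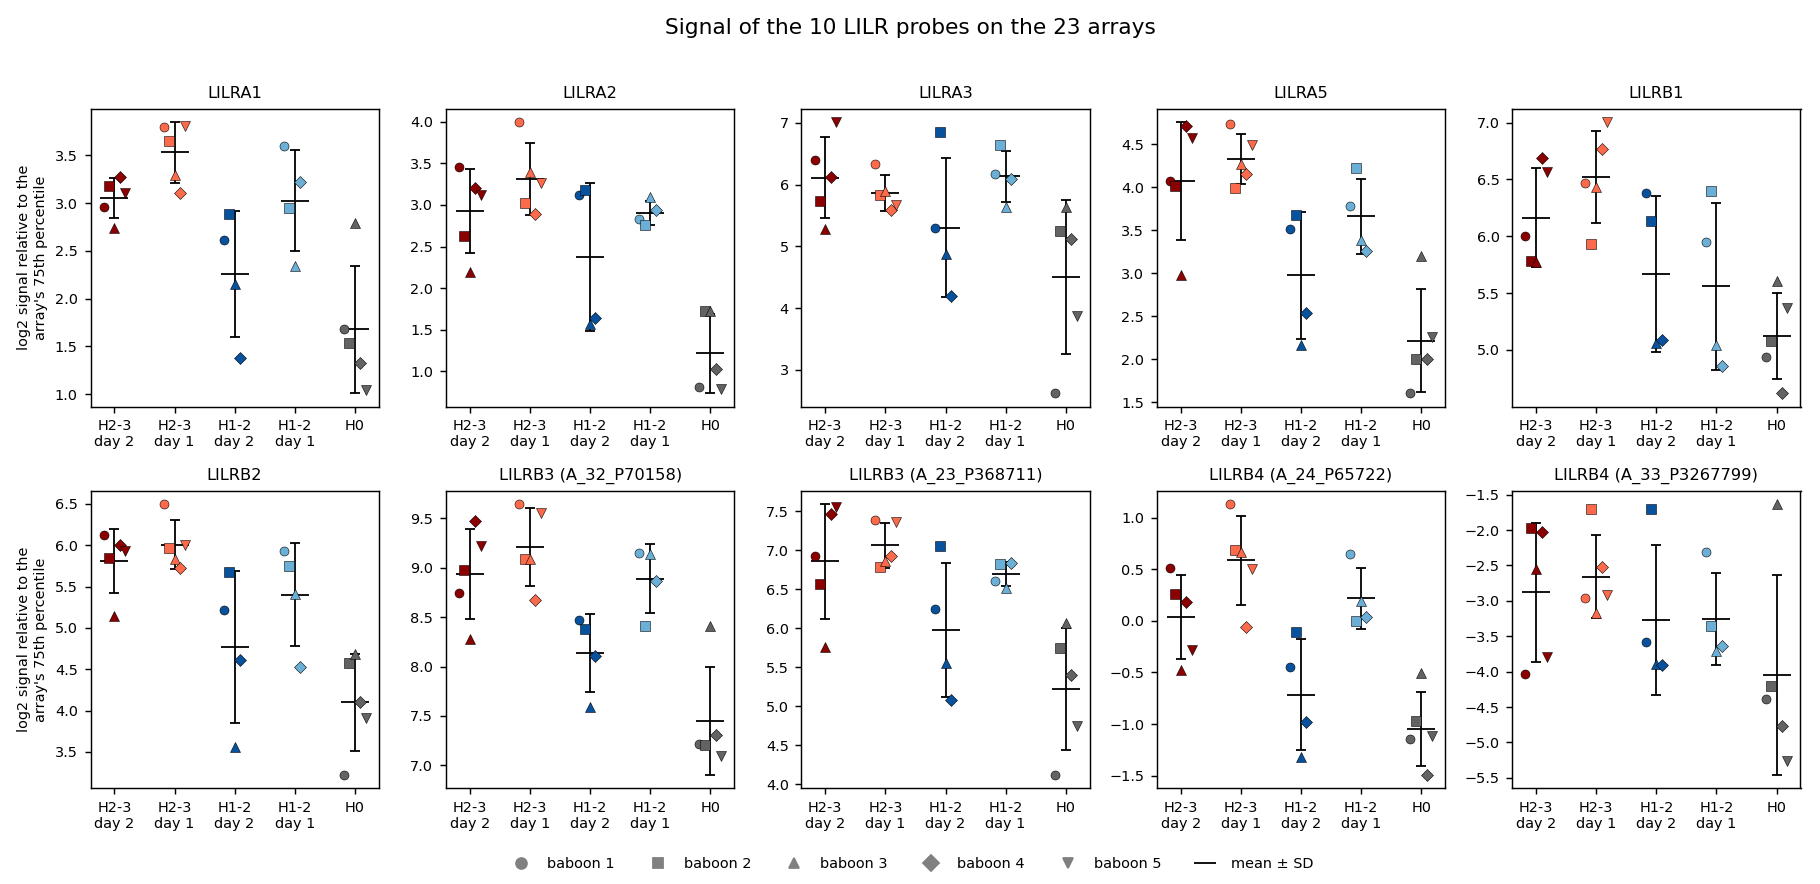
Log2 signal relative to the array's 75th percentile (y axis) of the 10 LILR probes in the 5 groups (x axis). Points are arrays, with the symbol giving the baboon number within its group, and bars give the mean ± SD. The H0 arrays are mostly lowest, H0 baboon 3 is the highest of H0 for all 10 probes, and H2-3 baboon 3 is the lowest of H2-3 day 2 for 9 of them.

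The first comparison asks how blood on day 1 of animals that later developed H2-3 differed from unexposed blood. All 8 LILR genes were higher in H2-3 on day 1, activating and inhibitory receptors alike. By probe, 9 of 10 were higher, while 15.0% of all probes were higher in this comparison, and no member was lower. The changes of the 10 probes ran from 1.36 to 2.12 with a median of 1.80, against a median of 0.13 over all probes. For 8 of the 10 probes every H2-3 array lay above every H0 array, which held for 9.47% of all probes. The members were chosen with earlier results of these data known, so these counts are no independent test. These are RNA levels in whole blood, where more cells of a type and more RNA per cell cannot be told apart.

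Among the activating receptors, LILRA5, which triggers cytokine release when cross-linked on human monocytes, had levels of 4.73, 4.00, 4.27, 4.16 and 4.50 in H2-3 baboons 1 to 5 on day 1, against 1.60, 2.00, 3.20, 2.00 and 2.25 in H0 baboons 1 to 5. The groups did not overlap, and H0 baboon 3 stood above the other H0 animals. The change was 2.12 ± 0.34, or 4.34-fold (adjusted p = 0.000226). LILRA2, which senses antibodies cut by microbial proteases, had levels of 3.99, 3.03, 3.39, 2.89 and 3.26 in H2-3 on day 1, against 0.81, 1.72, 1.73, 1.03 and 0.78 in H0. All H2-3 arrays again lay above all H0 arrays, with a change of 2.10 ± 0.32 (adjusted p = 0.000168). LILRA1, an activating receptor of monocytes, ranged from 3.11 to 3.81 in H2-3 and from 1.05 to 2.79 in H0, and differed by 1.85 ± 0.31 (adjusted p = 0.000258).

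LILRA3 lacks a membrane anchor and is secreted. Its levels were 6.34, 5.84, 5.90, 5.58 and 5.67 in H2-3 on day 1, against 2.63, 5.26, 5.64, 5.13 and 3.88 in H0. H0 baboons 1 and 5 were far below the other H0 animals, and H0 baboon 3 overlapped the irradiated group. The change of 1.36 ± 0.49 (adjusted p = 0.0420) was the smallest of the members. It passed in 8 of 23 alternative fits, whose adjusted p ran from 0.0158 to 0.211. The call was lost without H0 baboon 1 or 5 or without any 1 of the 5 H2-3 baboons, and also with scan day as a block (0.98, adjusted p = 0.211), with slide as a block, with the number of the title as a block (adjusted p = 0.0527), with 2 other scalings, with the authors' log2 values, without the filter on dim probes and in a fit of only the 2 groups.

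Among the inhibitory receptors, LILRB2, which binds MHC class I and is a marker of monocytes and dendritic cells, had levels of 6.50, 5.96, 5.83, 5.73 and 6.01 in H2-3 on day 1, against 3.22, 4.58, 4.69, 4.11 and 3.91 in H0. The groups did not overlap, with H0 baboon 1 lowest, and the change was 1.90 ± 0.35 (adjusted p = 0.000548). LILRB3, a receptor of monocytes and granulocytes, had levels at A_32_P70158 of 9.64, 9.09, 9.08, 8.67 and 9.55 in H2-3, against 7.21, 7.20, 8.41, 7.31 and 7.10 in H0. H0 baboon 3 came close to the irradiated animals without reaching them, and the other H0 animals lay within a narrow band. The change was 1.76 ± 0.27 (adjusted p = 0.000172), and the second LILRB3 probe, A_23_P368711, gave 1.85 ± 0.38 (adjusted p = 0.00124).

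LILRB1, the MHC class I receptor with the broadest cell distribution of the family, had levels of 6.47, 5.93, 6.44, 6.77 and 7.00 in H2-3 on day 1, against 4.94, 5.08, 5.61, 4.62 and 5.37 in H0. All H2-3 arrays lay above all H0 arrays, and the change was 1.40 ± 0.32 (adjusted p = 0.00283). LILRB4, a receptor of monocytes and dendritic cells that binds APOE, had levels at A_24_P65722 of 1.13, 0.68, 0.67, -0.06 and 0.50 in H2-3, against -1.14, -0.97, -0.51, -1.49 and -1.11 in H0. These groups did not overlap either, with H2-3 baboon 4 lowest of its group, and the change was 1.63 ± 0.26 (adjusted p = 0.000194). The dim second LILRB4 probe differed by 1.39 ± 0.58 and did not pass (adjusted p = 0.0767), but passed without H0 baboon 3. Within the second scan day, which leaves 3 H0 arrays, all 10 probes stayed positive with a median of 1.64. With slide as a fixed block 4 of the 10 probes passed, those of LILRA1, LILRA2, LILRB3 (A_32_P70158) and LILRB4 (A_24_P65722). The probes of LILRA5, LILRB1, LILRB2 and LILRB3 at A_23_P368711 lost their call in this alternative alone. The changes of LILRA2 and LILRA3 with slide as a fixed block were 3.21 and 2.46, and LILRA3 did not pass. That fit rests on slide 3, which alone holds both groups, with 1 array of each and a median within-slide difference of 2.51.

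**Figure D2:**
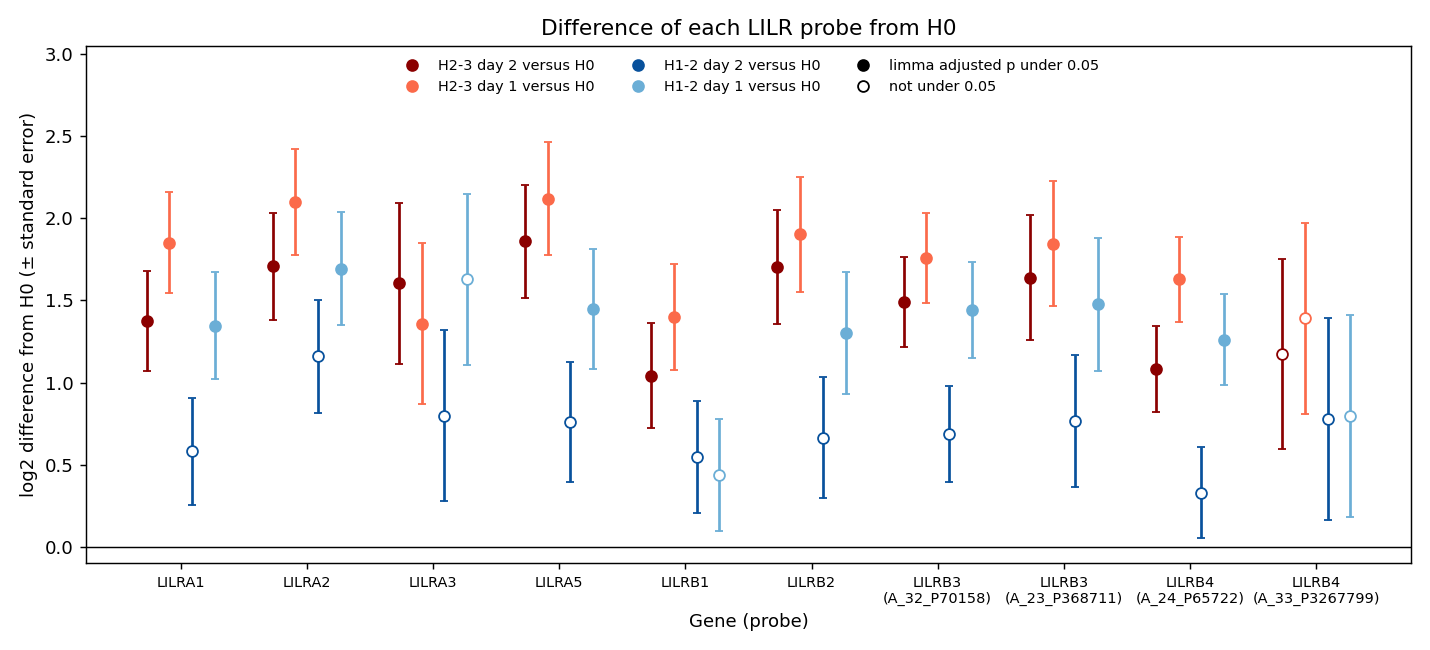
Log2 difference from H0 ± standard error (y axis) of each LILR probe (x axis) in the 4 irradiated groups, from the limma fit. Filled points have an adjusted p under 0.05: 9 probes in H2-3 on day 2, 9 in H2-3 on day 1, none in H1-2 on day 2 and 7 in H1-2 on day 1. Every difference is above 0.

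On day 2 all 8 genes were also higher in H2-3 than in H0. Again 9 of 10 probes were higher, while 10.2% of all probes were, with a median change of 1.55 over the members and -0.01 over all probes. LILRA5 had levels of 4.08, 4.02, 2.98, 4.72 and 4.57 in H2-3 on day 2 and differed from H0 by 1.86 ± 0.34 (adjusted p = 0.00658). Baboon 3 stood well below the other H2-3 animals and overlapped H0 baboon 3. LILRB2 was at 5.14 in baboon 3 and from 5.84 to 6.12 in the other H2-3 animals, and differed by 1.71 ± 0.35 (adjusted p = 0.00820). Baboon 3 was still above every H0 array. Groups did not overlap for 4 member probes, those of LILRA2, LILRB1, LILRB2 and LILRB4 (A_24_P65722), against 5.62% of all probes.

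LILRA3 differed by 1.60 ± 0.49 on day 2 (adjusted p = 0.0339) and LILRB1 by 1.04 ± 0.32 (adjusted p = 0.0351). These calls were the least firm: LILRA3 passed in 13 of 21 alternative fits and LILRB1 in 12 of 21. LILRA3 was lost without H0 baboon 1 or 5 or H2-3 baboon 4 or 5, and LILRB1 without H0 baboon 1, 2 or 4 or H2-3 baboon 4 or 5. Both were lost with quantile normalization, the authors' log2 values or no filter on dim probes, LILRA3 also in a fit of only the 2 groups, and LILRB1 also with slide as a random block (1.04, adjusted p = 0.0553). The adjusted p ran from 0.0142 to 0.111 for LILRA3 and from 0.0231 to 0.108 for LILRB1. The other called probes kept their call in every alternative fit that could be made. Slide and scan day as fixed blocks could not be fitted here. On day 1 slide as a fixed block left 4 probes called, so the 2 days cannot be ranked by how firm their calls are. The second LILRB4 probe did not pass (1.17 ± 0.58, adjusted p = 0.153), but did without H0 baboon 3.

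In H1-2 on day 1, 6 of the 8 genes were higher than in H0: LILRA1, LILRA2, LILRA5, LILRB2, LILRB3 and LILRB4. By probe 7 of 10 were higher, while 4.15% of all probes were, with a median of 1.39 over the members and 0.08 over all probes. LILRA2 had levels of 2.83, 2.76, 3.09 and 2.94 in H1-2 baboons 1 to 4. All of them lay above the H0 arrays, and they were close to each other. The change was 1.69 ± 0.34 (adjusted p = 0.0138). LILRB3 at A_32_P70158 had levels of 9.15, 8.41, 9.14 and 8.86 and differed by 1.44 ± 0.29 (adjusted p = 0.0138). Its lowest array, baboon 2, fell just below H0 baboon 3. Groups did not overlap for 4 probes, those of LILRA2, LILRA5, LILRB3 (A_23_P368711) and LILRB4 (A_24_P65722), against 4.97% of all probes.

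LILRA3 had a change of 1.63 ± 0.52 in H1-2 on day 1 that did not pass (adjusted p = 0.0529), although it was larger than its change of 1.36 in H2-3. It passed without H0 baboon 2, H0 baboon 3 or H1-2 baboon 3, with normexp background correction and with only probes well above background on all arrays. LILRB1 differed by 0.44 ± 0.34 (adjusted p = 0.435), the smallest change of the members here. The calls in H1-2 rested on few arrays. Without H1-2 baboon 1 no member passed, although all 10 probes stayed above H0 with a median of 1.26. Without H1-2 baboon 2 or H0 baboon 5 the count was 3 and without H0 baboon 1 it was 4. Within the second scan day all 10 probes were positive with a median of 1.25, but with scan day as a block none passed. With slide as a block none passed either, at a median of 2.21. No slide holds both H1-2 day 1 and H0 arrays. That median is reached only indirectly, through the H2-3 and H0 arrays on slide 3, and is no within-slide difference.

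In H1-2 on day 2 no member passed the limma test, and none of the 27215 probes did (0%). Unadjusted, 3 member probes (LILRA2, LILRA5 and LILRB3 at A_32_P70158) had a p under 0.05, and 10.6% of all probes did. All 10 differences were positive, between 0.33 and 1.16, with a median of 0.72. LILRA2, with the largest of them, had levels of 3.12, 3.18, 1.57 and 1.64 and differed from H0 by 1.16 ± 0.34 (adjusted p = 0.307). Baboons 1 and 2 lay far above H0 while baboons 3 and 4 lay within it.

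The comparison of the categories addresses the study's aim, which was to tell later severe from later milder disease in early blood. No member differed between H2-3 and H1-2 in the limma fit, on either day, and neither did any other probe (0% on each day). On day 2 the H2-3 levels were above the H1-2 levels for all 10 probes, by 0.39 to 1.10 with a median of 0.80, and 6 probes had an unadjusted p under 0.05, as did 9.80% of all probes. LILRA5 differed by 1.10 ± 0.37 (adjusted p = 0.508) and LILRB2 by 1.04 ± 0.37 (adjusted p = 0.508). On day 1 the differences were smaller, with 9 of 10 positive and a median of 0.46. LILRB1 alone had an unadjusted p under 0.05 (5.66% of all probes did), with a difference of 0.96 ± 0.34 (adjusted p = 0.543).

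These category differences varied with the slide. On day 2 the 10 probes had a median difference of -0.06 within slide 6, where 5 were positive, and of 1.56 within slide 7, where all 10 were. Slide 6 holds H2-3 baboons 1, 2 and 3 and H1-2 baboons 1 and 2, and slide 7 holds H2-3 baboons 4 and 5 and H1-2 baboons 3 and 4. On day 1 the medians were 0.17 on slide 4 and 0.57 on slide 5. LILRB1 showed the widest gap on day 1: it differed by 0.01 on slide 4 and 1.94 on slide 5.

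LILRB1 split the H1-2 animals into the same pairs on both days. Baboons 1 and 2 had levels of 6.38 and 6.14 on day 2, and of 5.95 and 6.40 on day 1, while baboons 3 and 4 had 5.07 and 5.09 on day 2, and 5.04 and 4.86 on day 1. The second pair lay within the H0 range of 4.62 to 5.61 and the first pair above it. LILRA3, LILRA5, LILRB2 and the dim LILRB4 probe also had baboons 1 and 2 above baboons 3 and 4 on both days. LILRA1, LILRA2, both LILRB3 probes and LILRB4 at A_24_P65722 did so on day 2 only. The pairs also sat on different slides on each day, so baboon and slide cannot be told apart within H1-2. In H2-3 on day 1 LILRB1 was at 5.93 and 6.44 in baboons 2 and 3, on the slide of H1-2 baboons 1 and 2. Baboons 4 and 5, on the slide of H1-2 baboons 3 and 4, had 6.77 and 7.00. The part of the slide in these levels was not tested. Monocyte markers gave the same pairs in H1-2. Their mean level over 12 genes was 5.41 and 5.32 in baboons 1 and 2 on day 2, and 4.35 and 4.41 in baboons 3 and 4. On day 1 it was 5.44 and 5.52 in baboons 1 and 2, and 4.59 and 4.69 in baboons 3 and 4. B cell markers split the same pairs in the opposite direction. Their mean level over 13 genes was -0.11 and 0.16 in baboons 1 and 2 on day 2, and 2.64 and 2.70 in baboons 3 and 4. On day 1 it was 0.62 and -0.19 in baboons 1 and 2, and 2.34 and 2.00 in baboons 3 and 4. The split was not particular to these 2 lists. T cell and red cell markers were also lower in baboons 1 and 2 on both days. Red cell markers on day 2, for example, were at 4.93 and 5.09 against 7.20 and 6.55. Genes that carry LILR signals and genes of LILR ligands were higher in baboons 1 and 2 on both days. Neutrophil and NK cell markers did not split these pairs on both days. The part of any cell type in the LILRB1 levels was not tested. LILRB1 was singled out after its values were seen. The difference between each other member probe and LILRB1 within an array was compared with H0 in 36 exact permutation tests. None passed after adjustment: the smallest exact p was 0.0159, for LILRA5 in H1-2 on day 1, where the log2 difference from H0 was 1.01 larger for LILRA5 than for LILRB1 (adjusted p = 0.264). The smallest p that such a test can give with 4 against 5 arrays is 0.00794. A single test at that p would not pass adjustment over 36 tests. The tests therefore could not decide whether LILRB1 changed differently from the other members.

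Between the days no member passed the test. In H2-3 the limma test called no member, while it called 2.48% of all probes. Day 2 lay below day 1 for 9 of 10 probes, with a median of -0.26, and LILRB4 (A_24_P65722) alone had an unadjusted p under 0.05 (25.3% of all probes did). In H1-2 none of all probes passed (0%). There too 9 of 10 probes were lower on day 2, with a median of -0.70, and 3 had an unadjusted p under 0.05 (22.8% of all probes did). LILRB4 at A_24_P65722 had the largest of these differences, with levels of -0.45, -0.11, -1.32 and -0.98 on day 2, against 0.65, -0.01, 0.19 and 0.04 on day 1. It was lower on day 2 in all 4 animals, by 0.93 ± 0.29 (adjusted p = 0.135). With the baboon as a random block, which uses the pairing of the days, this probe passed (adjusted p = 0.0465), and with the baboon as a fixed block no member did. The difference of the day change between H2-3 and H1-2 was called for no member and for 0% of all probes, with 0 member probes and 2.07% of all probes under 0.05 unadjusted.

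Single animals differed in how the receptors moved between days. Each difference sets a single day 2 array against a single day 1 array from another slide and scan day. Animal, array, slide and scan day therefore cannot be told apart here. The 10 probes also varied together, so a count of probes is not a count of independent changes. H2-3 baboon 4 had higher levels on day 2 for 9 of the 10 probes, all but LILRB1, while H2-3 baboon 3 had lower levels for 9 of the 10. For LILRA5 the differences of day 2 minus day 1 were -0.65, 0.02, -1.29, 0.56 and 0.08 in H2-3 baboons 1 to 5, and -0.27, -0.55, -1.22 and -0.72 in H1-2 baboons 1 to 4. LILRA5 was thus lower on day 2 in 2 of 5 H2-3 animals and in all 4 H1-2 animals. For LILRA3 the differences were 0.07, -0.10, -0.61, 0.54 and 1.34 in H2-3, and -0.88, 0.21, -0.76 and -1.90 in H1-2. LILRB1 was lower on day 2 in all 5 H2-3 animals and in 1 of 4 H1-2 animals.

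**Figure D3:**
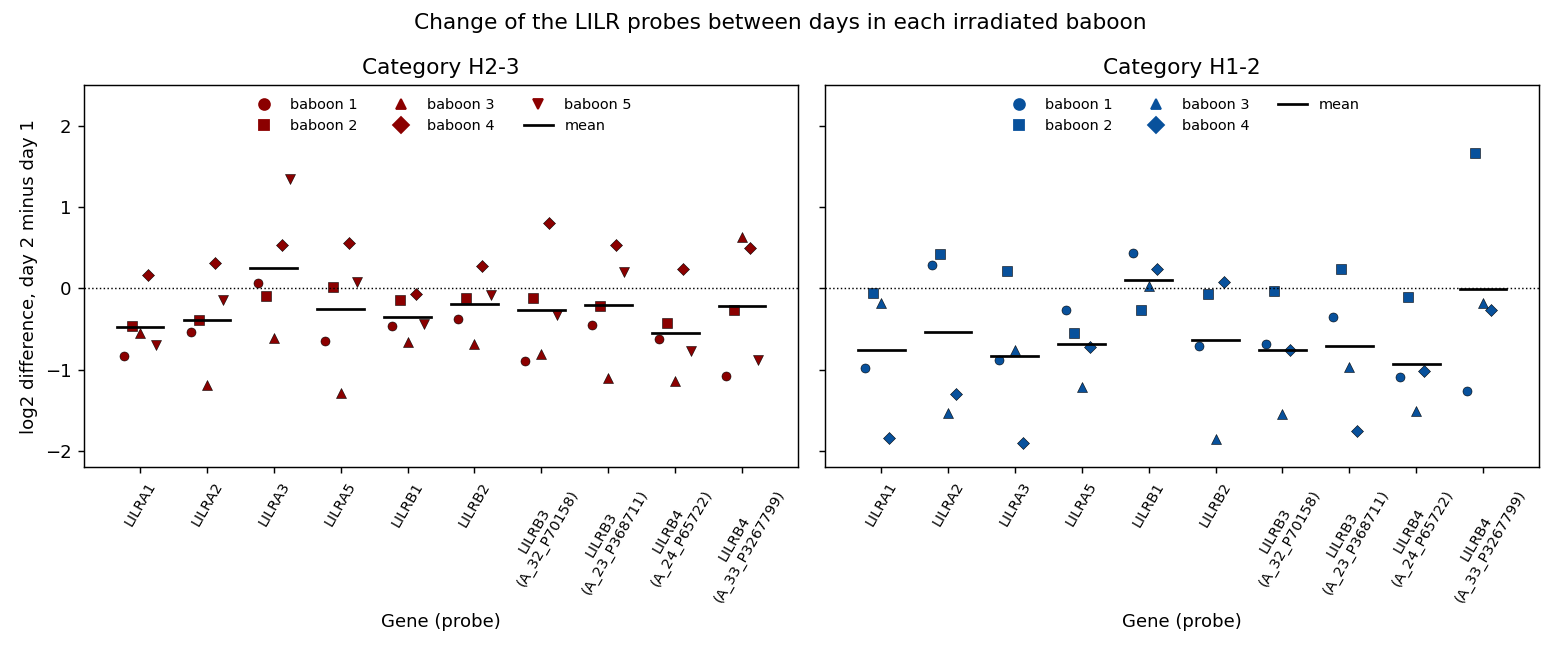
Log2 difference of day 2 minus day 1 (y axis) for each LILR probe (x axis) in every irradiated baboon, H2-3 left and H1-2 right; black lines are means. Most points lie below 0, H2-3 baboon 4 lies above 0 for all probes but LILRB1, and the means of LILRA3 in H2-3 and LILRB1 in H1-2 are above 0.

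The receptors varied together across arrays. Over the 23 arrays the 45 pairs of member probes had a median Pearson r of 0.80, from 0.51 to 0.94. After the group means were removed the median was 0.61, from 0.23 to 0.91. The highest, 0.905, was for LILRA3 and LILRB3 at A_23_P368711, the member pair that shares a run of 12 bases. Whether these probes take up each other's transcript was not tested. These arrays share RNA, scaling and slide, so the correlations are descriptions only. LILRA2 had the highest median r with the other members (0.89), and the dim LILRB4 probe (0.57) the lowest. Of 14432 other genes with a symbol, the patterns most like those of the activating receptors were TSPO (r = 0.96) and FPR1 (0.93) for LILRA1, MOB3A (0.95) and LILRA4 (0.95) for LILRA2, MYBPHL (0.93) and RALGAPA2 (0.93) for LILRA3, and SIGLEC11 (0.96) and CD63 (0.96) for LILRA5. For the inhibitory receptors they were ARMC10 (0.93) and PON2 (0.93) for LILRB1, SRA1 (0.96) and MEPCE (0.96) for LILRB2, CD97 (0.92) and WDR13 (0.92) for LILRB3, and FAM53C (0.94) and FBXO42 (0.94) for LILRB4.

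The LILRB3 probe A_23_P368711 and the LILRA4 probe, whose sequences share 24 bases, gave nearly the same pattern. Their r was 0.994 over the 23 arrays and 0.989 after the group means were removed. The 2 LILRB3 probes had an r of 0.871 with each other, and 0.630 after the group means were removed. LILRA4 is a receptor of plasmacytoid dendritic cells in human blood. The LILRA4 probe was higher in H2-3 on day 1 by 1.88 ± 0.36 (adjusted p = 0.000679), in H2-3 on day 2 by 1.62 ± 0.36 and in H1-2 on day 1 by 1.54 ± 0.38. The 4 other markers of those cells that could be tested did not move one way in H2-3 on day 1. TCF4, their defining transcription factor, fell by 1.84 ± 0.34 and DNASE1L3, a secreted nuclease, fell by 1.53 ± 0.57. SCT differed by 0.76 ± 0.43 (adjusted p = 0.202) and PTCRA by 0.17 ± 0.54 (adjusted p = 0.845), and neither passed. Whether the LILRA4 and LILRB3 probes take up each other's transcript was not tested.

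**Figure D4:**
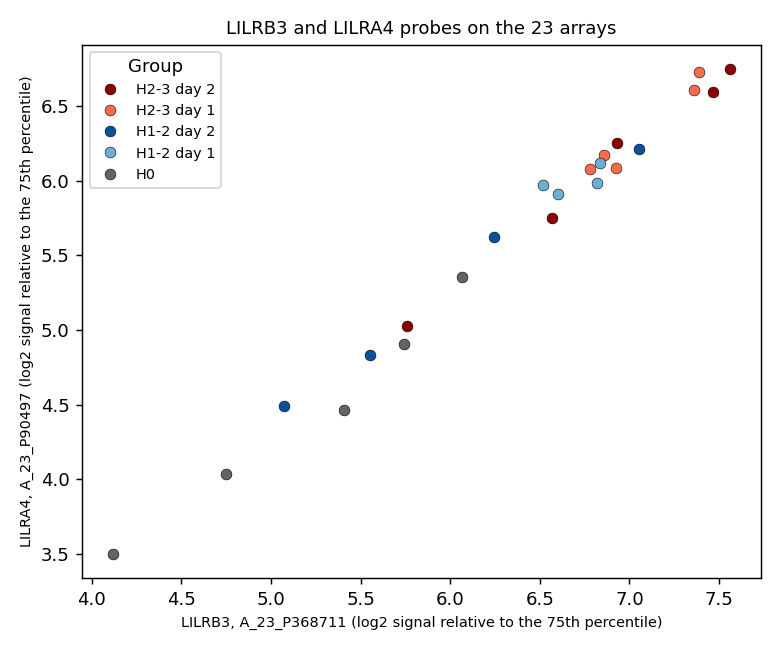
Log2 signal relative to the array's 75th percentile of the LILRA4 probe (y axis) against that of the LILRB3 probe A_23_P368711 (x axis), 1 point for each of the 23 arrays, coloured by group. The points lie close to a line (r = 0.994), with H0 baboon 1 at the low end.

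The other LILR genes on the array moved in the same direction where they passed. Of 4, 3 were higher in H2-3 on day 1, 2 in H2-3 on day 2, 2 in H1-2 on day 1 and none in H1-2 on day 2. Over all probes 15.0%, 10.2%, 4.15% and 0% were higher in the same order, which also holds for the lists below. In that order 3689, 1247, 1235 and 0 of the 27215 probes were lower. LILRA6, an activating receptor whose extracellular part is close to that of LILRB3, had levels at A_33_P3397599 of 6.29, 4.88, 6.19, 5.96 and 5.73 in H2-3 on day 1, against 2.59, 3.70, 4.77, 3.92 and 2.96 in H0. The groups did not overlap, and the change was 2.22 ± 0.39 (adjusted p = 0.000422). In H1-2 on day 1 this probe differed from H0 by 2.44 ± 0.42 (adjusted p = 0.0117). The second LILRA6 probe, A_21_P0011714, gave smaller values: 0.87 ± 0.25 in H2-3 on day 1 (adjusted p = 0.0133), 0.36 ± 0.25 in H2-3 on day 2 (adjusted p = 0.318) and 0.75 ± 0.27 in H1-2 on day 1 (adjusted p = 0.0771). The counts above take the probe with the higher mean. Few genes that lie near the LILRs in the leukocyte receptor complex passed. Of 12 tested, 1 was higher and 1 lower in H2-3 on day 1, and the medians were -0.02, 0.25, -0.15 and 0.19 in H2-3 on day 2, H2-3 on day 1, H1-2 on day 2 and H1-2 on day 1. The higher one was FCAR, the IgA receptor of neutrophils and monocytes, at 2.43 ± 0.50 (adjusted p = 0.00117). The lower one was VSTM1, an inhibitory receptor of myeloid cells, at -1.40 ± 0.52 (adjusted p = 0.0457). FCAR was also higher in H1-2 on day 1, by 2.11 ± 0.53 (adjusted p = 0.0218).

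Most genes that carry LILR signals were higher in H2-3. Of 16 signalling partners, 11 were higher in H2-3 on day 2, 14 in H2-3 on day 1, none in H1-2 on day 2 and 9 in H1-2 on day 1, and none was lower in these comparisons. Over all probes 10.2%, 15.0%, 0% and 4.15% were higher, in that order. FCER1G, the adaptor of the activating receptors, was higher by 0.76 ± 0.25 in H2-3 on day 2 (adjusted p = 0.0431), 2.01 ± 0.25 in H2-3 on day 1 (adjusted p = 7.46e-05) and 1.28 ± 0.26 in H1-2 on day 1 (adjusted p = 0.0138). TYROBP, a related adaptor, was higher by 1.00 ± 0.23, 1.43 ± 0.23 and 1.25 ± 0.24 in the same groups. The phosphatases recruited by the inhibitory receptors differed from each other: in H2-3 on day 1 PTPN6 was higher by 1.30 ± 0.27 (adjusted p = 0.00116), while PTPN11 differed by -0.40 ± 0.19 and did not pass (adjusted p = 0.119). INPP5D, an inositol phosphatase that also binds inhibitory motifs, was higher by 1.01 ± 0.23 (adjusted p = 0.00220). These 3 were picked as the phosphatases of the list.

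Of 15 ligands tested, 3 were higher in H2-3 on day 2, 6 in H2-3 on day 1 and none in H1-2 on either day. Over all probes 10.2% were higher in H2-3 on day 2 and 15.0% on day 1. HLA-E was higher in H2-3 by 0.65 ± 0.21 on day 2 (adjusted p = 0.0405) and by 0.66 ± 0.21 on day 1 (adjusted p = 0.0208). RTN4, which encodes the myelin protein Nogo, a reported ligand of LILRB2, was higher by 1.04 ± 0.29 on day 2 (adjusted p = 0.0238) and 1.28 ± 0.29 on day 1 (adjusted p = 0.00254). The class I genes HLA-B, HLA-C and HLA-F did not pass in H2-3 on day 1, with differences of 0.33, 0.42 and 0.38. Their transcripts are alike, so their probes may share signal. Inhibitory receptors of other families went both ways. Of 20, 8 were higher and 2 lower in H2-3 on day 2, 9 higher and 4 lower in H2-3 on day 1, none either way in H1-2 on day 2 and 4 higher and 1 lower in H1-2 on day 1. SIRPA, the CD47 receptor of myeloid cells, was higher in H2-3 by 1.83 ± 0.35 on day 2 and 1.82 ± 0.35 on day 1. CLEC4A, a C-type lectin with an inhibitory motif, was higher by 1.87 ± 0.41 on day 2 and 2.11 ± 0.41 on day 1.

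Markers of neutrophils and monocytes, which carry LILRs, were also higher. Of 17 neutrophil markers, 9 were higher in H2-3 on day 2, 16 in H2-3 on day 1, none in H1-2 on day 2 and 11 in H1-2 on day 1. Of 12 monocyte markers, 7, 10, 0 and 3 were higher in those groups, in the same order. The shares of all probes that were higher were 10.2%, 15.0%, 0% and 4.15%. CXCR1, a chemokine receptor of neutrophils, was higher by 2.33 ± 0.37 in H2-3 on day 1 (adjusted p = 0.000188), and CD177, a neutrophil surface protein, by 3.95 ± 0.68 (adjusted p = 0.000351). CD68, a lysosomal protein of monocytes, was higher by 1.82 ± 0.32 (adjusted p = 0.000392), and FCN1, a lectin of monocytes, by 1.59 ± 0.29 (adjusted p = 0.000495). The mean level over the monocyte markers was 5.45 to 5.74 on the H2-3 day 1 arrays and 3.98 to 4.78 on the H0 arrays. For neutrophil markers it was 4.91 to 5.51 on H2-3 day 1 arrays and 1.99 to 4.71 on H0 arrays, with H0 baboon 1 lowest and H0 baboon 3 highest. The 8 LILR genes had a mean level of 4.61 to 5.32 on H2-3 day 1 arrays and 2.62 to 3.95 on H0 arrays, with the same H0 animals lowest and highest. These H0 animals were also lowest and highest for the monocyte and B cell markers, the signalling partners and the ligands. The part of cell numbers in the LILR changes was not tested.

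Lymphocyte markers were mostly lower. In H2-3 on day 1, 11 of 13 B cell markers, 15 of 16 NK cell markers and 12 of 15 T cell markers were lower, and 2 T cell markers were higher. In H2-3 on day 2 the numbers lower were 12, 5 and 3, and in H1-2 on day 1 they were 0, 10 and 5. In H1-2 on day 1, 1 T cell marker was higher. Of all 27215 probes, 3689 were lower in H2-3 on day 1, 1247 in H2-3 on day 2 and 1235 in H1-2 on day 1. BLK, a B cell kinase, fell by 4.37 ± 0.65 in H2-3 on day 1, and POU2AF1, a B cell transcription coactivator, fell by 4.15 ± 0.60. In H1-2 on day 1 BLK differed by -0.78 ± 0.69 and did not pass (adjusted p = 0.498). CTSW, a protease of NK cells and cytotoxic T cells, fell by 3.14 ± 0.41 in H2-3 and by 1.87 ± 0.44 in H1-2 on day 1. IL2RB, an interleukin receptor chain of NK and T cells, fell by 2.32 ± 0.38 in H2-3 on day 1. Of 5 plasmacytoid markers, 1 (LILRA4, which is also in the list of other LILR genes) was higher and 2 were lower in H2-3 on each day, while the defining markers CLEC4C and IL3RA were too dim to be tested. Of 8 red cell markers none passed in any comparison with H0. In H2-3 on day 1 SLC4A1, the anion exchanger of red cells, differed by -0.36 ± 0.47 and EPB42, a membrane skeleton protein, by -0.81 ± 0.55.

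**Figure D5:**
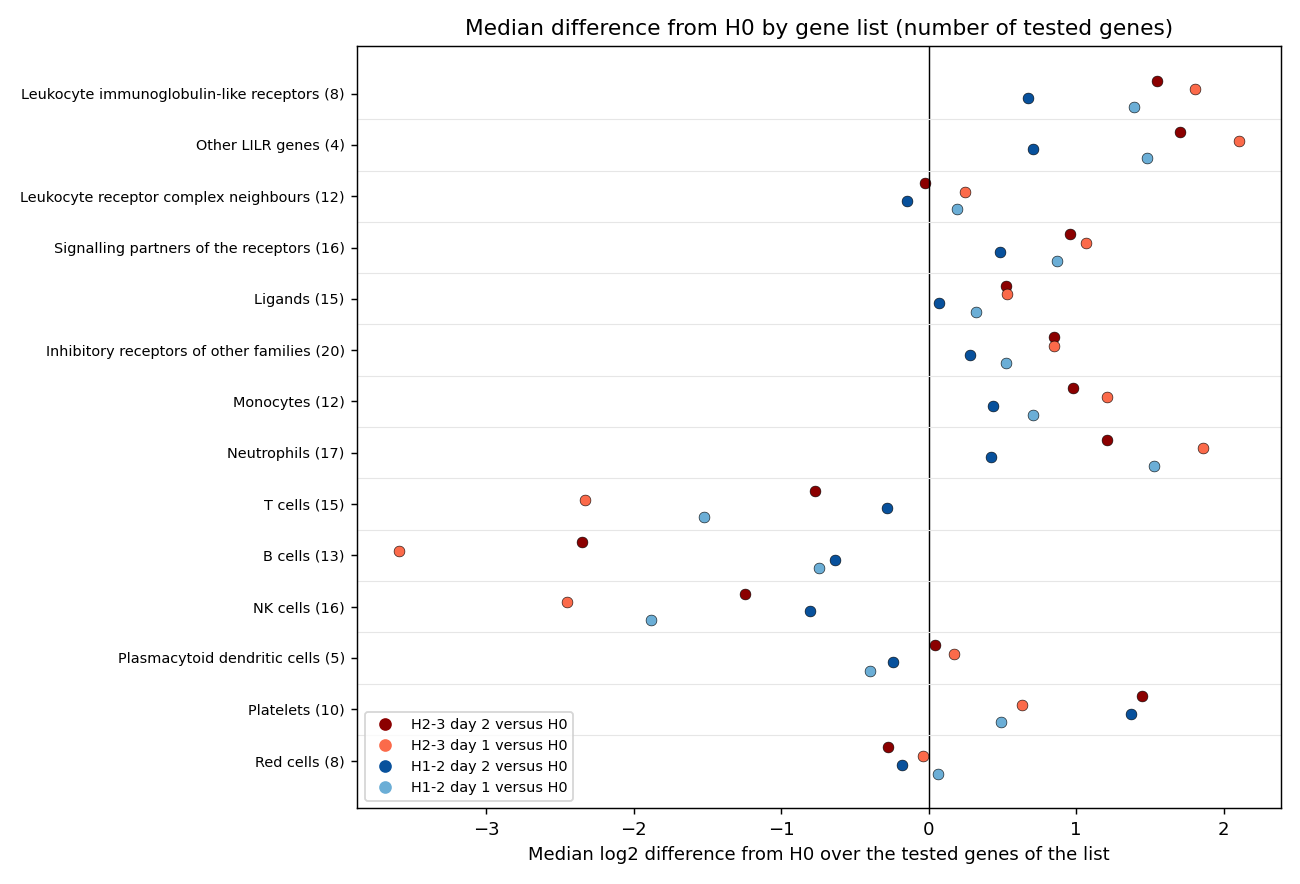
Median log2 difference from H0 (x axis) over the tested genes of each list (y axis, number of genes in brackets) in the 4 irradiated groups. The LILR genes lie at 1.55, 1.81, 0.68 and 1.39 in H2-3 on day 2, H2-3 on day 1, H1-2 on day 2 and H1-2 on day 1, near the other LILR genes and the neutrophil markers, while the B, NK and T cell lists lie below 0.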

How the data were processed

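RNA of whole blood was labelled with Cy3 and hybridised to human Agilent arrays, 1 colour and 1 array per sample, 23 in all. Scanning was analysed in Agilent Feature Extraction 10.7.3.1, per the file headers and the submitters' notes. The spot values deposited by the authors are intensity, linear and background-subtracted; the flags for spots well above background, saturated or outlying are the software's own, per the file headers. A second deposited file gives log2 values made by the authors, with 39726 probes, of which 39637 matched the scanner files. Each of its columns correlated best with its own array (0.9982 to 0.9999), and its column medians were 4.706 or 4.707. Its centring is unknown. It was used as an alternative.

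For the levels, log2 of the processed signal was averaged over the spots of a probe and scaled by subtracting the 75th percentile of the non-control probes (80.95 to 156.4 as signal). A probe was kept when well above background on at least 4 arrays. The 5 group means were fitted with limma 3.58.1 in R 4.3.3 (statmod 1.5.0), two-sided, with Benjamini-Hochberg adjustment at 0.05 over all kept probes. The number of arrays limits the precision. The fit has no term for the baboon. The titles give the same baboons on both days, so the days are paired. The deviations of a baboon's arrays from the group means correlated with r from 0.052 to 0.429, very weakly in some animals. Slide may share in these values. The baboon as a block was an alternative. The other alternatives were background correction, scaling, the authors' log2 values, the filter, a single probe for each gene, slide, scan day, 2-group fits and leaving out each array. The computation was tested on simulated data.

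Lists are described by counts and medians, with the kept probe of highest mean standing for a gene. The text names each member, from each list the 2 genes with the smallest F-test p, and the 2 genes most like each member. PTPN6, PTPN11, INPP5D, HLA-B, HLA-C, HLA-F, DNASE1L3, LILRB5 and LILRP2 were named after their values were seen. The members and lists were chosen with earlier results of these data known. Too dim to be tested were 2 leukocyte receptor complex genes, 2 ligands, 1 inhibitory receptor, and 1 monocyte, 2 B cell and 2 plasmacytoid markers. CD22 stands in both the inhibitory receptor and the B cell lists.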

Additional observations from a re-analysis of the deposited data

Results flagged for a closer look

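In 50 groups of 4 or 5 arrays (10 member probes in 5 groups), 3 had an array standing apart from the rest of its group by Dixon's test, where chance gives about 1 in 20. LILRB2 in H2-3 baboon 3 on day 2 was lowest at 5.143, with the other 4 animals between 5.84 and 6.12. LILRB3 (A_32_P70158) in H0 baboon 3 was highest at 8.412, with the other 4 between 7.10 and 7.31. The dim LILRB4 probe (A_33_P3267799) in H1-2 baboon 2 on day 2 was highest at -1.703, with the other 3 between -3.91 and -3.58. H0 baboon 3 was the highest H0 array for all 10 member probes, and H2-3 baboon 3 the lowest H2-3 day 2 array for 9 of 10.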

How the results depend on the processing

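The 25 member calls against H0 were recomputed under 547 alternative values: 468 kept direction and call, 79 kept direction without the call, and 0 changed sign. Counts of called member probes (of 10) moved by over 1.5 times as follows. With slide as a block, the count was 4 in H2-3 on day 1 and 0 in H1-2 on day 1, against 9 and 7. In H1-2 on day 1 a scan day block also gave 0, and a fit of only the 2 groups gave 2. Leaving out 1 array gave 8 to 10 for H2-3 on day 1, 7 to 10 for H2-3 on day 2 and 0 to 8 for H1-2 on day 1, and 0 in every comparison between categories or days. The cause was not tested. With the baboon as a random replicate block (correlation 0.247), 1 probe was lower on day 2 in H1-2, LILRB4 (A_24_P65722), against 0 without it and 0 with a fixed block; the block moved no other count by over 1.5 times. Taking the 75th percentile over probes detected on all arrays shifted the median of all probes by up to -0.19 and left every called member positive. Slide or scan day as a fixed block could not be fitted for day 2 against H0 or day 1, nor the baboon as a fixed block against H0. For the dim LILRB4 probe, signal close to background limits the comparison.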

Other observations

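LILRB5, an inhibitory receptor, was the most variable LILR gene. Its levels were 0.44, 2.84, -2.98, 3.08 and 2.93 in H2-3 baboons 1 to 5 on day 2 and 2.43, 2.94, -3.77, 1.37 and 3.50 on day 1. In H1-2 they were -2.71, 0.47, -4.84 and 0.57 on day 2, and -2.97, -2.57, 1.24 and -3.63 on day 1. The H0 baboons 1 to 5 had 1.76, -4.45, -2.70, -1.29 and -2.75. The probe was well above background on 4 of 5 H2-3 arrays on each day, 3 of 4 H1-2 day 2, 1 of 4 H1-2 day 1 and 4 of 5 H0 arrays. H2-3 baboon 3 was far below the other H2-3 animals on both days, while H0 baboon 1 was far above the other H0 animals. The differences from H0 were 3.15 ± 1.47 in H2-3 on day 2 (adjusted p = 0.134) and 3.18 ± 1.47 in H2-3 on day 1 (adjusted p = 0.112), and did not pass. LILRP2, a pseudogene, was higher in H2-3 on day 1 by 1.98 ± 0.55 (adjusted p = 0.0103).

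Of 10 platelet markers tested, 6 were higher than in H0 in H2-3 on day 2 and 1 in H2-3 on day 1, with medians of 1.45 and 0.63. Over all probes 10.2% and 15.0% were higher in these comparisons. Between day 2 and day 1 the limma test called 0 of the platelet markers in either category. Unadjusted, 1 in H2-3 and 2 in H1-2 were under 0.05, as were 25.3% and 22.8% of all probes. ITGB3, a platelet integrin, was higher by 2.42 ± 0.67 in H2-3 on day 2 (adjusted p = 0.0232). ITGA2B, its partner chain, was higher by 1.73 ± 0.43 in H2-3 on day 2 (adjusted p = 0.0152) and differed by 0.64 ± 0.43 on day 1 (adjusted p = 0.286). In H1-2 none passed, with medians of 1.37 on day 2 and 0.49 on day 1. Among the T cell markers CD4, which human monocytes also carry, was higher in H2-3 on day 1 by 1.20 ± 0.16 (adjusted p = 7.46e-05), while CD3G fell by 3.25 ± 0.39.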
